A study of Mus musculus with 4 samples.

Results

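Genes of Wnt signalling were followed in 2 sorted fractions of mouse stomach epithelium. The gene set was chosen by symbol: every Wnt ligand, Frizzled receptor, R-spondin, and member of the Sfrp and Dkk families in the table, together with Lrp5, Lrp6, Axin1, Axin2, Znrf3, Rnf43, Nkd1, Notum, Ascl2, Sp5, Lef1, Tcf7, Tcf7l1, Tcf7l2, Ctnnb1, Apc and Porcn. The rule found 58 genes among the 55335 rows of the table: 19 Wnt ligands, 10 Frizzled receptors, 4 R-spondins, 9 secreted inhibitors and 16 genes of the remaining steps. No expression value entered the choice.

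The fractions came from the stomach corpus of C57BL/6 mice, 6 to 8 weeks old, all of the genotype Iqgap3-2A-tdTomato, whose tdTomato, a red fluorescent protein, comes from the same transcript as Iqgap3, an IQGAP family scaffold. Living cells stained for the epithelial surface protein EpCAM were sorted into Iqgap3-high cells (IQ3pos) and cells with low or no reporter signal (IQ3neg). Each fraction had 2 SMART-Seq2 libraries, full-length cDNA amplified by PCR: IQ3pos_1909A and IQ3neg_1909B were pooled from 3 mice each, IQ3pos_1910A and IQ3neg_1910B from 4 mice each. Single mice cannot be told apart in such pools, so p-values measure only the spread between pooled libraries, part of which may be technical.

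Wnt proteins are lipid-modified in the secreting cell by the acyltransferase Porcupine and bind Frizzled receptors with the co-receptors Lrp5 and Lrp6. Binding stalls the destruction complex of Axin, Apc and their kinases, and β-catenin then accumulates and acts with TCF/LEF factors on target genes, among them the pathway's own brakes Axin2, Nkd1, Notum, Znrf3 and Rnf43. R-spondins raise the sensitivity of a cell by taking Znrf3 and Rnf43 off its surface, and in the stomach Wnt and R-spondin signals are known for their part in the upkeep of gland stem cells and chief cells.

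The libraries held 90714929 and 279125309 reads in genes in IQ3pos_1909A and IQ3pos_1910A, and 115016307 and 418401262 in IQ3neg_1909B and IQ3neg_1910B. Levels are given as CPM, counts per 1000000 reads in genes, scaled by TMM, a correction for library composition. The correction was needed because Clps, Pla2g1b, mt-Cytb and Pgc, the 4 most abundant genes, took 14.3% and 8.44% of IQ3pos reads and 53.6% and 46.6% of IQ3neg reads. Deposited CPM therefore set the median gene 0.68 higher in IQ3pos on the log2 scale, against 0.04 after TMM. Iqgap3 itself, the gene behind the sort, stood at 0.155 and 8.14 CPM in IQ3pos and at 0.0586 and 0.546 CPM in IQ3neg, so the library labelled IQ3pos_1909A lay below IQ3neg_1910B. Without IQ3pos_1909A, the limma log2 differences of Fzd7, Rspo4 and Sfrp5, the leading members below, were 2.81, −1.95 and −3.84, beside 2.53, −1.96 and −3.84 with it. Rspo4 and Sfrp5 were near 0 in both IQ3pos libraries and could scarcely move, so this omission does not test the sort. Other members did move, among them Tcf7l1 (−2.56 to −0.86), Rnf43 (−0.11 to −1.47) and Fzd3 (0.38 to −0.58). Epcam, the protein of the gate, stood at 333 and 451 CPM in IQ3pos and at 276 and 322 CPM in IQ3neg.

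The promoters of 5 genes are shown because their levels, given below, separated the fractions or because they mark pathway output: Fzd7, Rspo4, Sfrp5 and Wnt11, the members with a call from any of the tests used, and Axin2, the standard target gene of β-catenin. Each is 300 bases long, 250 before and 50 from the RefSeq start site on, taken from RefSeq on GRCm38.p6 and written 5′ to 3′ on the strand of the gene. Capitals mark matches to the TCF/LEF motifs CTTTGAT and CTTTGTT, searched on both strands.
Fzd7 (chr1:59481897-59482196, plus strand): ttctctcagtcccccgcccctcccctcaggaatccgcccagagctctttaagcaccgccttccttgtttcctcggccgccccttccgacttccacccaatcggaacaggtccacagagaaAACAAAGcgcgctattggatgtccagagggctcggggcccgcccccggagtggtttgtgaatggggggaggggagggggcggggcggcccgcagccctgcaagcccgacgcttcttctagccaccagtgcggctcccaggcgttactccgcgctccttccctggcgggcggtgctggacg
Rspo4 (chr2:151842677-151842976, plus strand): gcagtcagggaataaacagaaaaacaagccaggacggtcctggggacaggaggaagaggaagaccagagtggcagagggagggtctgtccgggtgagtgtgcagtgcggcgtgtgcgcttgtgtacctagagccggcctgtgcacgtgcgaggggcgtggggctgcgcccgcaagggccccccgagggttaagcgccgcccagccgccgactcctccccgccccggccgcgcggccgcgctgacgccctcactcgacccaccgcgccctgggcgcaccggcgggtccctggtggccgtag
Sfrp5 (chr19:42202203-42202502, minus strand): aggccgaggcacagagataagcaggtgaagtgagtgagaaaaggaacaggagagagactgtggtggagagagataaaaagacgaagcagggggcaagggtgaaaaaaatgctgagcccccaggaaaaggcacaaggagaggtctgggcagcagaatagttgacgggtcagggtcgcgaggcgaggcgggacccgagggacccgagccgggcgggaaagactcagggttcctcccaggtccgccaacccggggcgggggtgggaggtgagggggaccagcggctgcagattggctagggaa
Wnt11 (chr7:98834862-98835161, plus strand, the first of its start sites): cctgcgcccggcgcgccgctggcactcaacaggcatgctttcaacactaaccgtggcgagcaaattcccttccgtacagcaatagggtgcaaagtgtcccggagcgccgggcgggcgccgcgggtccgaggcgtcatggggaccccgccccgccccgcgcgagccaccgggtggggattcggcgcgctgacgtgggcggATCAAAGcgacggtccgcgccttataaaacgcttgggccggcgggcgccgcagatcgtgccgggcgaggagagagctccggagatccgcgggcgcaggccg
Axin2 (chr11:108920099-108920398, plus strand): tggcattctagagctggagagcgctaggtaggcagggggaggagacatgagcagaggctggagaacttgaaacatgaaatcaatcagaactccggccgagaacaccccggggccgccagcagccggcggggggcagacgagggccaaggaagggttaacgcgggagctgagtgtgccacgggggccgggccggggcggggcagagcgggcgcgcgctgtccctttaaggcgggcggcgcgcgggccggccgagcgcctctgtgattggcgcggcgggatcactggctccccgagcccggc
The Fzd7 window held 1 match on its minus strand, starting 130 bases before the start site (position −130), and the Wnt11 window held 1, also on the minus strand, at position −51. The windows of Rspo4, Sfrp5 and Axin2 held none of these letters. Of all 32851 promoter windows in the table, 3066 (9.33%) held a match, as did 7 (14.9%) of the 47 windows of the 37 members that had one. The GC content of the Fzd7, Rspo4, Sfrp5, Wnt11 and Axin2 windows was 66.7%, 71.0%, 61.3%, 71.3% and 70.0%, above the median of 52.7% of all windows. A match is a description of the sequence, and binding was not measured.

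Most Wnt genes were scarcely present. Of the 58, 21 reached a mean of 1 CPM over the 4 libraries and entered the test, 9 lay between 0.1 and 1 CPM, 27 lay under 0.1 CPM, and Dkk1, a secreted blocker of Lrp6, had no read in any library. With 3 reads as the limit that a count of 0 allows, Dkk1 lay below 0.0233 and 0.00938 CPM in IQ3pos_1909A and IQ3pos_1910A and below 0.0351 and 0.00866 CPM in IQ3neg_1909B and IQ3neg_1910B. Such limits, like the intervals given below, cover counting error only, as the reads carry no molecular identifiers. The number of members at 1 CPM or more was 15 and 17 in IQ3pos and 15 and 20 in IQ3neg, and 10 members reached that level in all 4 libraries. The heat map of all members shows these bright bands for Fzd3 to Fzd6, Lrp6, Znrf3, Rnf43, Apc, Ctnnb1 and Tcf7l2.

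**Figure D1:**
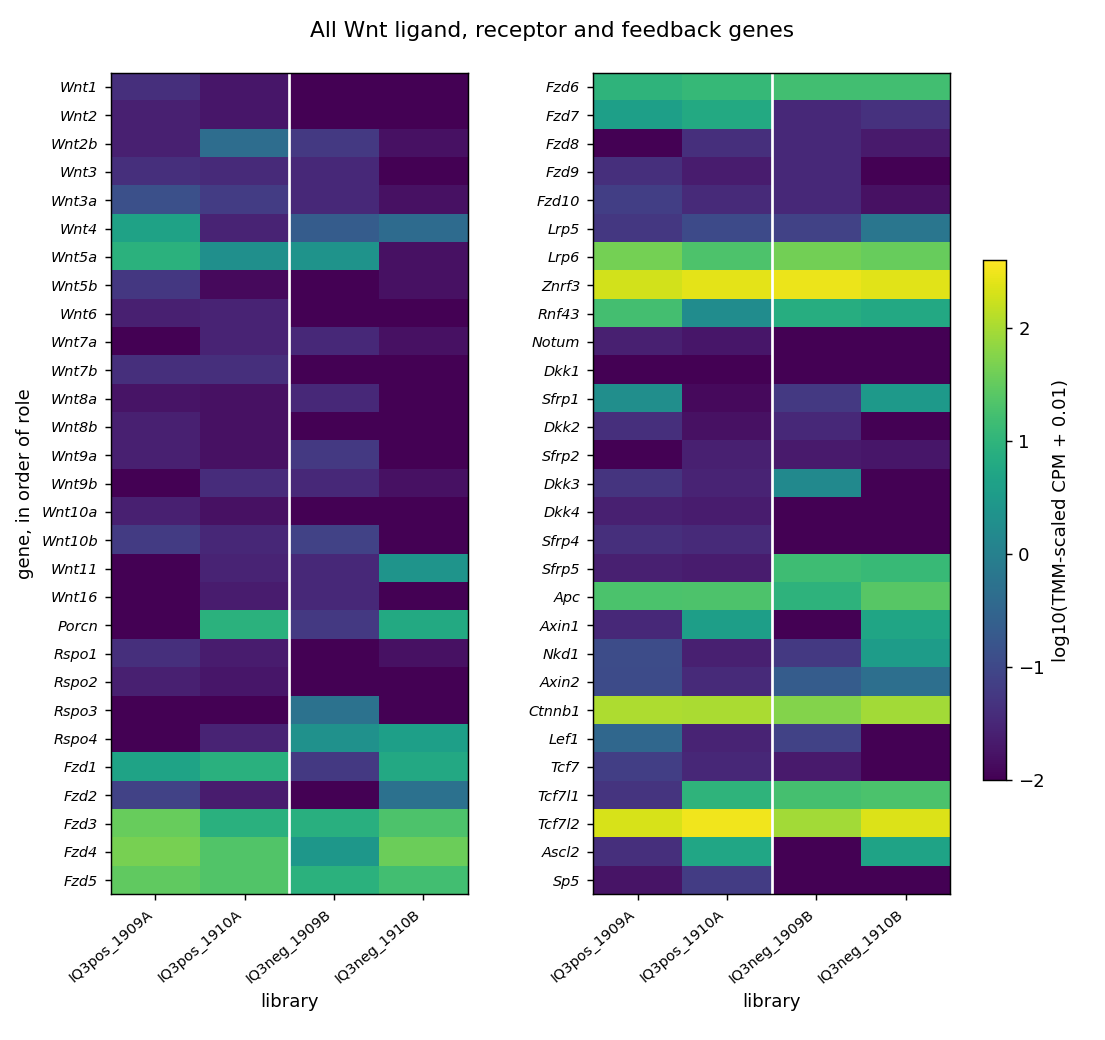
Level of each of the 58 Wnt genes (down the page, in order of role) in each library (across), as log10 of TMM-scaled CPM + 0.01, with IQ3pos left of the white line and IQ3neg right of it. Most ligands are dark in all 4 libraries, whereas Znrf3, Tcf7l2 and Ctnnb1 are bright throughout; Sfrp5 and Rspo4 are dark in IQ3pos and Fzd7 is dark in IQ3neg.

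Across all tested genes the fractions gave few calls in limma. Limma on log2(TMM-scaled CPM + 1), with Benjamini-Hochberg adjustment at 0.05, called 0 of 13093 genes higher in IQ3pos (0%) and 18 lower (0.137%). Of the 21 tested Wnt genes it called 0 higher and 0 lower. At an unadjusted p under 0.05 limma had 1 member higher (Fzd7) and 1 lower (Sfrp5), against 877 and 1018 of all genes. The edgeR quasi-likelihood test on the recovered reads also called 0 of 29 members in either direction, where it called 0.0535% of 16831 genes higher and 0.214% lower. At an unadjusted p under 0.05 edgeR had 1 member higher and 2 lower, against 890 and 1826 of all genes.

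The DESeq2 Wald test on the same reads called many more genes, 4.84% of 21495 higher in IQ3pos and 9.45% lower. It called 1 of 33 members higher (Fzd7) and 3 lower (Sfrp5, Rspo4 and Wnt11), or 3.03% and 9.09% of the members, shares near those of all genes, so the counts are not a result about Wnt genes as a set. The 4 genes are given in more detail below for their own values. An exact permutation test of 2 libraries against 2 cannot go below p = 0.333, so none was run on single genes.

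Group order gave the same picture. Both IQ3pos libraries lay above both IQ3neg libraries for 3 of the 21 tested members (14.3%), Fzd7, Fzd5 and Ctnnb1, where 24.3% of all tested genes did. Both lay below for 4 (19.0%), Sfrp5, Tcf7l1, Rspo4 and Fzd6, where 22.3% of all tested genes did. The fractions overlapped for the other 14 members. The median log2 difference of the tested members was 0.20, beside 0.04 for all genes. As each fraction is a bulk sample, fewer cells of a type and less RNA per cell cannot be told apart in any of these differences.

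**Figure D2:**
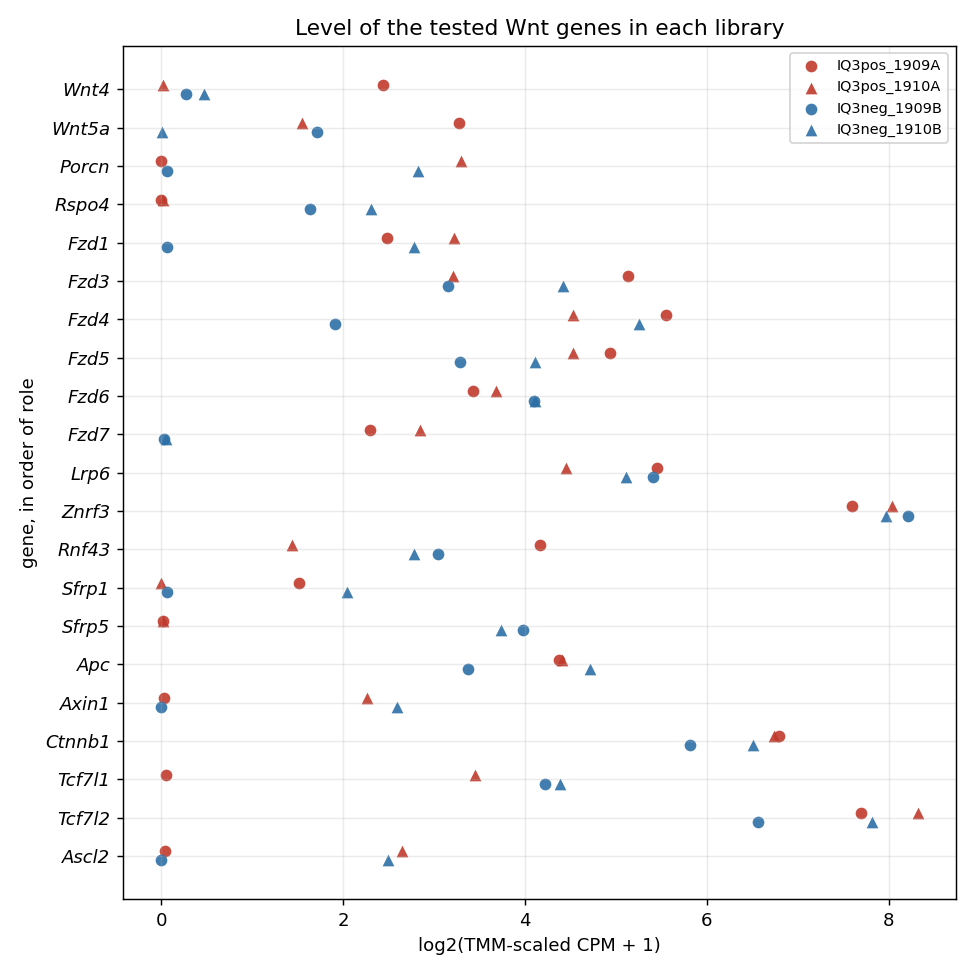
Level of the 21 tested Wnt genes in each library, as log2(TMM-scaled CPM + 1), with IQ3pos libraries in red and IQ3neg libraries in blue (circles, 3-mouse pools; triangles, 4-mouse pools). The red and blue points are fully separated for Fzd7, Fzd5, Ctnnb1, Sfrp5, Tcf7l1, Rspo4 and Fzd6, and mixed for the other 14 genes.

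Among the ligands, 16 of 19 Wnt genes stayed under 1 CPM in all 4 libraries, and Wnt4, Wnt5a and Wnt11 exceeded it in at least 1. Wnt5a, a ligand known mainly for signalling that does not pass through β-catenin, stood at 8.73 and 1.93 CPM in IQ3pos and at 2.30 and 0.00577 CPM in IQ3neg. IQ3pos was higher within each pool size, but the lower IQ3pos library lay below the higher IQ3neg one, so the fractions overlapped. The log2 difference was 1.55 (SE 1.15, limma adjusted p = 0.586). The reads behind it numbered 1124 and 618 in IQ3pos and 196 and 2 in IQ3neg.

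Wnt4, a ligand of epithelial development, stood at 4.44 and 0.0188 CPM in IQ3pos and at 0.211 and 0.390 CPM in IQ3neg. It was the IQ3pos 3-mouse pool alone that reached 1 CPM, and the other 3 libraries lay far below it (log2 difference 0.86, SE 1.06, limma adjusted p = 0.721). Wnt11, a ligand tied to cell movement, stood at 0 and 0.0188 CPM in IQ3pos and at 0.0234 and 2.38 CPM in IQ3neg. Its 0, 6, 2 and 826 reads in IQ3pos_1909A, IQ3pos_1910A, IQ3neg_1909B and IQ3neg_1910B place nearly all of it in 1 library. DESeq2 gave it a log2 fold change of −7.07 (adjusted p = 0.0359), a call lost without IQ3pos_1909A (−6.22, adjusted p = 0.120) and without IQ3pos_1910A (−9.62, adjusted p = 0.0729). Such fits leave 1 library in an arm, which is assumed to vary like the 2 of the other fraction. Without IQ3neg_1910B, which holds nearly all of its reads, DESeq2 gave Wnt11 no adjusted p. Wnt11 also shares 8.80% of its exon bases with genes of the opposite strand, and the strand setting of the counting is not given in the sources used here. Wnt2b stood at 0.0155 and 0.432 CPM in IQ3pos and at 0.0468 and 0.00577 CPM in IQ3neg, again high in 1 library. The remaining 15 ligands, Wnt3a among them, never passed 0.124 CPM.

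Porcn, the acyltransferase that makes Wnt proteins fit for secretion, stood at 0 and 8.80 CPM in IQ3pos and at 0.0468 and 6.11 CPM in IQ3neg. It was near 0 in both 3-mouse pools and plain in both 4-mouse pools, whatever the fraction (log2 difference 0.20, SE 1.54, limma adjusted p = 0.963). Ascl2 and Axin1, described with the targets and the destruction complex, had the same shape.

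Of the 4 R-spondins, only Rspo4 entered the test, and nearly all of its reads were in IQ3neg. Rspo4 (chromosome 2, 151842927 to 151874668, plus strand, GRCm38) stood at 0 and 0.0188 CPM in IQ3pos and at 2.11 and 3.97 CPM in IQ3neg. The reads numbered 0 and 6 in IQ3pos and 180 and 1376 in IQ3neg, with no overlap between the fractions. Among the 3-mouse pools it was at least 90.5-fold lower in IQ3pos, taking 3 reads per library as the floor. Among the 4-mouse pools it was 212-fold lower (95% exact interval 97.0 to 578). The pools thus differed the same way, at a low level in each.

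Limma, whose added pseudocount of 1 damps low genes, gave Rspo4 a log2 difference of −1.96 (SE 0.85, adjusted p = 0.361). DESeq2 gave −8.40 (adjusted p = 0.00263). With a library left out, which leaves a lone library in an arm, its log2 fold change ran from −10.99 to −7.56. Rspo4 was scarcely read in either IQ3pos library, so omitting either could scarcely turn its direction. Rspo3, the R-spondin of the stroma, was read in IQ3neg_1909B alone, at 0.539 CPM from 46 reads, and had 0 reads in the other 3 libraries. Rspo1 and Rspo2 lay under 0.1 CPM. Summed per kb of exon, the R-spondins came to 0.0191 and 0.0162 CPM per kb in IQ3pos and to 1.06 and 1.68 CPM per kb in IQ3neg. Rspo4 made up 83.6% and 99.8% of the IQ3neg sums.

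Of the 10 Frizzled receptors, 6 were tested. Fzd7 gave the largest positive limma difference among the tested members. Fzd7 (chromosome 1, 59482424 to 59486955, plus strand, GRCm38), a receptor that stem cells of the mouse intestine need, stood at 3.91 and 6.19 CPM in IQ3pos and at 0.0234 and 0.0346 CPM in IQ3neg. The reads numbered 504 and 1980 in IQ3pos and 2 and 12 in IQ3neg, and the fractions did not overlap. Its RefSeq start site, and with it the promoter printed above, lies upstream of the GENCODE gene.

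The IQ3pos level of Fzd7 was 167-fold that of IQ3neg among the 3-mouse pools (95% exact interval 46.0 to 1383) and 179-fold among the 4-mouse pools (102 to 347). The 2 estimates lie well within each other's intervals. Limma gave a log2 difference of 2.53 (SE 0.89, adjusted p = 0.300). DESeq2 gave 7.31 (adjusted p = 0.00301), and between 7.05 and 7.71 with a library left out, again with a lone library in an arm. Fzd7 was scarcely read in either IQ3neg library, so omitting either could scarcely turn its direction. Fzd7 made up only 4.84% and 10.5% of the summed Frizzled level per kb in IQ3pos, against 0.0910% and 0.0531% in IQ3neg.

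The other tested Frizzled genes were present in both fractions. Fzd5, which carries Wnt signals in gut epithelium, stood at 29.6 and 22.1 CPM in IQ3pos and at 8.76 and 16.2 CPM in IQ3neg. Both IQ3pos libraries lay above both IQ3neg libraries, by a small margin (log2 difference 1.03, SE 0.66, limma adjusted p = 0.526). Of its exon bases 17.8% are shared with a transcript of the opposite strand, so its reads may not all be its own. Fzd6, a receptor of planar polarity, stood at 9.80 and 11.9 CPM in IQ3pos and at 16.1 and 16.3 CPM in IQ3neg. Both IQ3pos libraries were the lower ones, with −0.54 as the log2 difference (SE 0.67, limma adjusted p = 0.721), which turned to 0.11 on deposited CPM.

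Fzd1, Fzd3 and Fzd4 overlapped between the fractions. Fzd1 stood at 4.61 and 8.32 CPM in IQ3pos and at 0.0468 and 5.87 CPM in IQ3neg, so that IQ3neg_1909B alone lacked it (log2 difference 1.43, SE 1.23, limma adjusted p = 0.603). Fzd4, a receptor that also takes the ligand Norrin, stood at 46.1 and 22.2 CPM in IQ3pos and at 2.76 and 37.2 CPM in IQ3neg (log2 difference 1.46, SE 1.17, limma adjusted p = 0.596). Its difference was 3.65 between the 3-mouse pools but −0.72 between the 4-mouse pools. Fzd3, a receptor of axon guidance, had 1 higher and 1 lower library in each fraction, at 34.0 and 8.27 CPM in IQ3pos and 7.94 and 20.4 CPM in IQ3neg, with 1.97 between the 3-mouse pools but −1.21 between the 4-mouse pools. Fzd2 lay at 0.0699 and 0.0125 CPM in IQ3pos and at 0 and 0.517 CPM in IQ3neg, and Fzd8, Fzd9 and Fzd10 under 0.1 CPM.

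Lrp6 and Znrf3, a co-receptor and a receptor-removing enzyme, were read in quantity in all 4 libraries. Lrp6 stood at 42.9 and 20.9 CPM in IQ3pos and at 41.4 and 33.6 CPM in IQ3neg, overlapping (log2 difference −0.31, SE 0.56, limma adjusted p = 0.815). Its relative Lrp5 stood at 0.0466 and 0.0969 CPM in IQ3pos and at 0.0703 and 0.635 CPM in IQ3neg. Lrp5 thus stayed under 1 CPM in each library, and Lrp6 well above it.

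Znrf3, a ubiquitin ligase that removes Frizzled from the membrane, stood at 193 and 262 CPM in IQ3pos and at 297 and 251 CPM in IQ3neg. The fractions overlapped, and the SE of 0.33 was the smallest among the tested members (log2 difference −0.28, limma adjusted p = 0.707). Its partner Rnf43 was lower and less even, at 17.0 and 1.72 CPM in IQ3pos and at 7.26 and 5.85 CPM in IQ3neg (log2 difference −0.11, SE 1.16, limma adjusted p = 0.975). Per kb of exon, Znrf3 averaged 28.9 CPM per kb in IQ3pos and 34.7 CPM per kb in IQ3neg. Znrf3 and Rnf43 together came to 27.1 and 33.5 CPM per kb in IQ3pos and to 38.7 and 32.7 CPM per kb in IQ3neg. The 10 Frizzled genes summed to 17.9 and 13.0 CPM per kb in IQ3pos and to 5.68 and 14.4 CPM per kb in IQ3neg, below the ligases in every library.

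**Figure D3:**
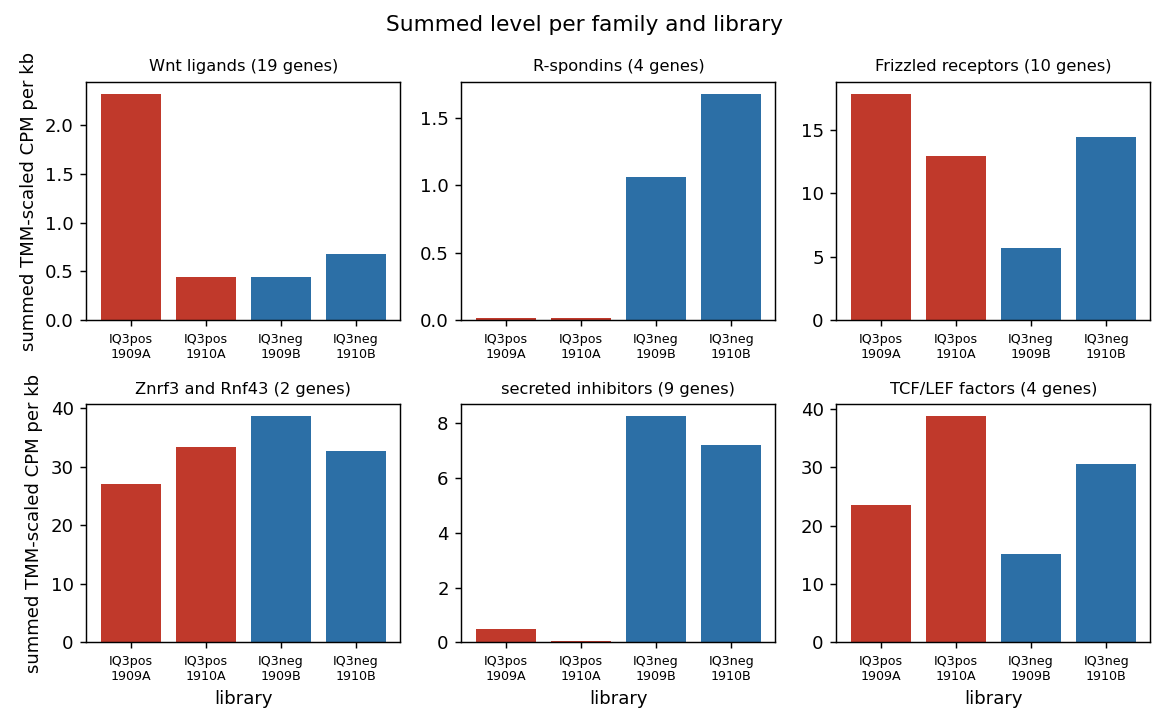
Summed TMM-scaled CPM per kb of exon in each library for 6 groups of Wnt genes (bars; IQ3pos red, IQ3neg blue; each panel has its own axis from 0). The R-spondins and the secreted inhibitors are low in both IQ3pos libraries and higher in both IQ3neg libraries, whereas the Frizzled receptors, TCF/LEF factors and Wnt ligands overlap between the fractions. In IQ3neg, Rspo4 makes up 83.6% and 99.8% of the R-spondin sums, and Sfrp5 94.3% and 90.0% of the inhibitor sums.

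Secreted inhibitors were sparse apart from Sfrp5, which gave the largest limma difference in either direction among the tested members. Sfrp5 (chromosome 19, 42197971 to 42202252, minus strand, GRCm38), a secreted protein with a Frizzled-like domain that captures Wnt ligands, stood at 0.0155 and 0.0125 CPM in IQ3pos and at 14.8 and 12.3 CPM in IQ3neg. These levels rest on 2 and 4 reads in IQ3pos and on 1266 and 4266 reads in IQ3neg. The fractions were far apart and the libraries of each fraction close together.

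Sfrp5 was 955-fold lower in IQ3pos among the 3-mouse pools (95% exact interval 264 to 7894) and 984-fold lower among the 4-mouse pools (384 to 3615). Limma gave a log2 difference of −3.84 (SE 0.93, unadjusted p = 0.00621, adjusted p = 0.231), and edgeR gave −10.11 (adjusted p = 0.173). DESeq2 gave −10.03 (adjusted p = 1.82e-05), and between −10.30 and −9.72 with a library left out, again with a lone library in an arm. Sfrp5 was scarcely read in either IQ3pos library, so omitting either could scarcely turn its direction. Sfrp5 made up 94.3% and 90.0% of the summed level per kb of the 9 secreted inhibitors in IQ3neg. None of its exon bases is shared with another gene, which also holds for Fzd7 and Rspo4.

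The other inhibitors showed no such split. Sfrp1 stood at 1.86 and 0.00313 CPM in IQ3pos and at 0.0468 and 3.12 CPM in IQ3neg, high in 1 library of each fraction (log2 difference −0.29, SE 1.09, limma adjusted p = 0.914). Dkk3, a divergent Dickkopf protein, stood at 0.0388 and 0.0188 CPM in IQ3pos and at 1.499 and 0 CPM in IQ3neg, so that IQ3neg_1909B alone held it in quantity. Sfrp2, Sfrp4, Dkk2, Dkk4 and Notum, the enzyme that strips the lipid from Wnt proteins, lay under 0.1 CPM.

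In the destruction complex Apc, the scaffold whose loss starts most colorectal tumours, stood at 19.8 and 20.2 CPM in IQ3pos and at 9.35 and 25.3 CPM in IQ3neg. The IQ3pos values lay between the IQ3neg ones (log2 difference 0.35, SE 0.71, limma adjusted p = 0.833). Axin1, the limiting scaffold, stood at 0.0233 and 3.81 CPM in IQ3pos and at 0 and 5.06 CPM in IQ3neg, split by pool and not by fraction (log2 difference −0.15, SE 1.31, limma adjusted p = 0.968).

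Ctnnb1, which encodes β-catenin, was abundant throughout, at 109.9 and 106 CPM in IQ3pos and at 55.3 and 90.1 CPM in IQ3neg. Both IQ3pos libraries lay above both IQ3neg libraries, but the log2 difference was not called (0.60, SE 0.41, limma adjusted p = 0.555). Of its exon bases 15.1% are shared with other genes. RNA was measured here, and the stability of the protein, on which signalling turns, was not.

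The TCF/LEF factors were nearly all Tcf7l2 and Tcf7l1. Tcf7l2, the main TCF factor of gut epithelium, stood at 206 and 319 CPM in IQ3pos and at 93.4 and 224 CPM in IQ3neg (log2 difference 0.82, SE 0.51, limma adjusted p = 0.515). The fractions overlapped, although within each pool size IQ3pos was the higher. Tcf7l1, which acts mostly as a repressor, stood at 0.0388 and 9.92 CPM in IQ3pos and at 17.7 and 19.97 CPM in IQ3neg. Both IQ3pos libraries were below both IQ3neg libraries, yet they differed widely from each other, and limma did not call the log2 difference (−2.56, SE 1.28, adjusted p = 0.414).

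Set against each other per kb of exon, Tcf7l2 made up 99.7% and 93.5% of the TCF/LEF sum in IQ3pos and 70.2% and 83.4% in IQ3neg. Tcf7l1 made up 0.0420% and 6.51% in IQ3pos and 29.7% and 16.6% in IQ3neg. The shares did not overlap between the fractions, whereas the summed levels did. As Tcf7l2 and Tcf7l1 made up nearly all of the sum, their shares mirror each other and are not separate results. They carry the Tcf7l1 difference, which limma did not call, and the share of 0.0420% rests on 5 reads. Lef1, typical of lymphoid and progenitor cells, stood at 0.334 and 0.0188 CPM in IQ3pos and at 0.0703 and 0 CPM in IQ3neg. Tcf7 stayed under 0.1 CPM.

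Of the target and feedback genes not yet described, Axin2, Nkd1, Notum and Sp5 averaged under 1 CPM, and Ascl2 was tested. Axin2, the most widely used target of β-catenin, stood at 0.101 and 0.0250 CPM in IQ3pos and at 0.211 and 0.473 CPM in IQ3neg, from 13, 8, 18 and 164 reads in IQ3pos_1909A, IQ3pos_1910A, IQ3neg_1909B and IQ3neg_1910B. Both IQ3pos libraries were the lower ones. It was not tested in limma for its low level, and neither edgeR (log2 fold change −3.30, adjusted p = 0.314) nor DESeq2 (−2.48, adjusted p = 0.639) called it. Nkd1, a feedback inhibitor that binds Dishevelled, stood at 0.109 and 0.0156 CPM in IQ3pos and at 0.0468 and 3.47 CPM in IQ3neg, read in quantity in IQ3neg_1910B alone.

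Ascl2, a transcription factor of intestinal stem cells, stood at 0.0311 and 5.27 CPM in IQ3pos and at 0 and 4.64 CPM in IQ3neg. Both 4-mouse pools held it and both 3-mouse pools lacked it (log2 difference 0.10, SE 1.36, limma adjusted p = 0.981). Sp5, a direct target in embryonic cells, had 1 and 18 reads in IQ3pos and 0 reads in IQ3neg, all under 0.1 CPM. Axin2 was lower in both IQ3pos libraries, and Nkd1 and Ascl2 overlapped. Sp5 and Notum had reads in IQ3pos alone, at most 18 per library. In IQ3pos_1909A both (0.00776 and 0.0155 CPM) lay below the floor of 3 reads in IQ3neg_1909B (0.0351 CPM), so their direction is not resolved there. Notum also shares 38.1% of its exon bases with genes of the opposite strand. No common direction can be read from these 5 genes. Between the 4-mouse pools Axin2 was 18.9-fold lower in IQ3pos (95% exact interval 9.38 to 44.6), and between the 3-mouse pools 2.09-fold lower (0.968 to 4.64).

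**Figure D4:**
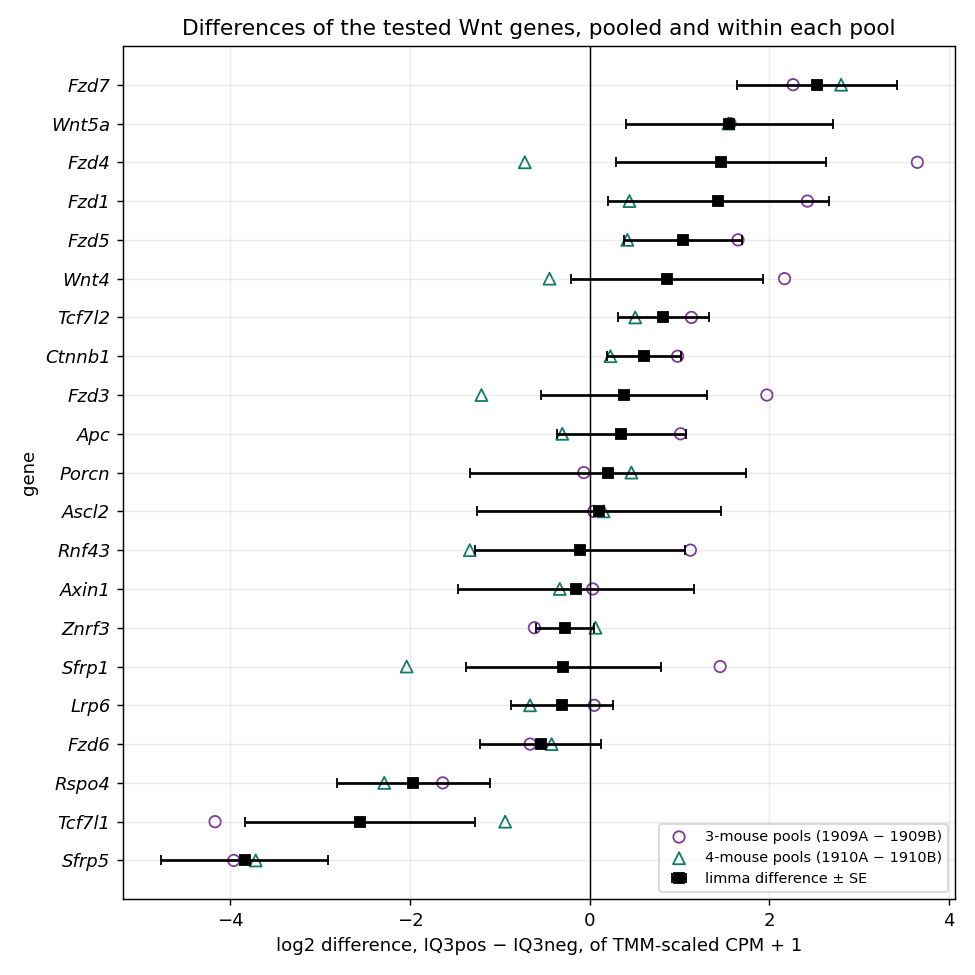
Log2 difference (IQ3pos − IQ3neg) of TMM-scaled CPM + 1 for the 21 tested Wnt genes: limma estimate ± SE (black squares), the difference among the 3-mouse pools (open circles) and among the 4-mouse pools (open triangles). The pools lie on opposite sides of 0 for 10 of the 21 genes, a count without a matching share of all genes. For Fzd7, Rspo4 and Sfrp5 they lie close together, as they do for other genes, among them Wnt5a and Fzd6. Closeness on this scale is not closeness of ratios, as Wnt5a was 3.80-fold higher in IQ3pos among the 3-mouse pools and 335-fold among the 4-mouse pools.

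The pools of 3 and of 4 mice often disagreed. Of the 21 tested members, 11 had the same sign among the 3-mouse and the 4-mouse pools (7 higher in IQ3pos, 4 lower), and 10 had opposite signs. In 9 members (42.9%) the 2 libraries of a fraction were more than 10-fold apart, beside 32.3% of all tested genes. Porcn, Axin1 and Ascl2, near 0 in both 3-mouse pools and between 3.81 and 8.80 CPM in both 4-mouse pools, are among them. In IQ3pos_1909A and IQ3neg_1909B, Porcn had 0 and 4 reads, Axin1 3 and 0, and Ascl2 4 and 0. Those libraries held 90714929 and 115016307 reads in genes. The mouse number and the library number of a pool cannot be told apart, and both 4-mouse pools were also the deeper ones. What set the pools apart in these genes was not tested.

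Of the 37 untested members, 36 had a read. Both IQ3pos libraries lay above both IQ3neg libraries for 16 of the 36 (44.4%) and below for 2 (5.56%), Wnt11 and Axin2. Among all 25700 untested genes with a read these shares were 23.2% and 4.51%. The 16 genes had 1 to 18 reads per IQ3pos library and at most 2 per IQ3neg library, and 11 of them had no IQ3neg read at all. In IQ3pos_1909A these 11 reached at most 0.0311 CPM, below the floor of 3 reads in IQ3neg_1909B (0.0351 CPM). Their order is therefore not resolved. The order of Wnt11 rests on 2 reads in IQ3neg_1909B (0.0234 CPM) against 6 in IQ3pos_1910A (0.0188 CPM), within counting error. Over all rows of the table, 29724 and 30017 held a read in IQ3pos and 21757 and 21823 in IQ3neg, so rows with any read were more numerous in IQ3pos. What part this has in the 16 genes was not tested.

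The rest of the pathway was read from 7 lists of 139 genes, of which 100 were tested, and limma called 0 of the 100 higher and 0 lower. EdgeR called 0 genes in each of these lists, and DESeq2 calls were not counted over them. Their median log2 difference was −0.14, and 19 lay higher in both IQ3pos libraries and 26 lower. Of all tested genes 24.3% lay higher and 22.3% lower, so these counts are near the shares of all genes. The counts of single lists below stand beside the same shares, and no list was tested as a set. Among 6 tested genes of ligand secretion, 3 lay higher in both IQ3pos libraries and 0 lower (median 0.39). Wls, the carrier of lipid-modified Wnt proteins, stood at 110 and 114 CPM in IQ3pos and at 59.0 and 74.2 CPM in IQ3neg (log2 difference 0.75, SE 0.37, limma adjusted p = 0.412). Tmed5, a cargo receptor of the early secretory path, stood at 96.8 and 116 CPM in IQ3pos and at 48.1 and 51.3 CPM in IQ3neg (1.08, SE 0.39, adjusted p = 0.305). For both genes the fractions did not overlap, and neither passed.

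Among 11 tested co-receptors, 2 lay higher and 2 lower in both IQ3pos libraries (median −0.53). Gpc4, a glypican, stood at 19.3 and 11.6 CPM in IQ3pos and at 0.0468 and 7.33 CPM in IQ3neg. Kremen1, a receptor of Dkk proteins, stood at 0.0466 and 0.0532 CPM in IQ3pos and at 7.85 and 0.566 CPM in IQ3neg. Neither limma (adjusted p = 0.499) nor edgeR (adjusted p = 0.344) called Kremen1. DESeq2, which called 9.45% of all genes lower, gave it a log2 fold change of −6.54 (adjusted p = 0.0155). DESeq2 values of the other list genes are not given here, so this call does not set Kremen1 apart from them. Lgr4 and Lgr5, R-spondin receptors, were chosen after their values were seen. Lgr4 stood at 1278 and 1372 CPM in IQ3pos and at 542 and 463 CPM in IQ3neg, far above all members and without overlap (log2 difference 1.40, SE 0.26, limma adjusted p = 0.166). Lgr5, known from chief cells of the corpus and from antral stem cells, stood at 7.83 and 0.0188 CPM in IQ3pos and at 0.0703 and 16.5 CPM in IQ3neg, with 1 high library in each fraction.

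Among 6 tested inhibitors outside the Sfrp and Dkk families, 0 lay higher and 3 lower in both IQ3pos libraries (median −1.73). Sostdc1, a secreted protein that binds Lrp6 and BMP ligands, stood at 7.70 and 0.0407 CPM in IQ3pos and at 122 and 176 CPM in IQ3neg (log2 difference −5.61, SE 1.06, limma adjusted p = 0.166). Wif1, which binds Wnt ligands, stood at 0.0155 and 0.134 CPM in IQ3pos and at 2.53 and 10.2 CPM in IQ3neg (−2.55, SE 1.01, adjusted p = 0.335). Both were low in IQ3pos and higher in IQ3neg, the direction of Sfrp5, and neither passed.

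Inside the cell, 19 tested genes of the Dishevelled proteins and the destruction complex had 2 higher and 4 lower in both IQ3pos libraries (median −0.38). Rnf146, the ubiquitin ligase of Axin turnover, stood at 4.32 and 6.68 CPM in IQ3pos and at 12.5 and 15.6 CPM in IQ3neg. Dvl1 stood at 1.75 and 7.65 CPM in IQ3pos and at 9.06 and 11.8 CPM in IQ3neg. Of 19 nuclear cofactors, 3 lay higher and 8 lower (median −0.49). Bcl9, a β-catenin coactivator, stood at 0.0466 and 0.0532 CPM in IQ3pos and at 3.85 and 6.69 CPM in IQ3neg (log2 difference −2.54, SE 0.90, limma adjusted p = 0.301). Tle2, a Groucho corepressor, was as far apart, at 0.0776 and 0.0469 CPM in IQ3pos and 5.27 and 4.61 CPM in IQ3neg (−2.48, SE 0.88, adjusted p = 0.301).

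Of 23 further target genes, 6 lay higher and 6 lower in both IQ3pos libraries (median 0.09). Smoc2, a matrix protein enriched in intestinal stem cells, stood at 0.0311 and 0.0156 CPM in IQ3pos and at 11.9 and 20.9 CPM in IQ3neg (log2 difference −4.04, SE 0.96, limma adjusted p = 0.225). Prox1, a homeobox factor that enteroendocrine cells also express, stood at 0.109 and 0.131 CPM in IQ3pos and at 6.09 and 14.2 CPM in IQ3neg (−3.21, SE 0.97, adjusted p = 0.270). Of 16 planar polarity genes, 3 lay higher and 3 lower (median 0.18), with Vangl1 at 7.02 and 19.1 CPM in IQ3pos and 0.539 and 4.17 CPM in IQ3neg, and Wdpcp at 0.217 and 0.0125 CPM in IQ3pos and 2.79 and 10.3 CPM in IQ3neg.

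The make-up of the fractions differed along with these genes. Chief cell markers summed to 35952 and 17184 CPM in IQ3pos and to 560134 and 488493 CPM in IQ3neg, with 8 of 9 lower in both IQ3pos libraries and a read for each in all 4. Of these sums, Clps alone made 22335 and 6236 CPM in IQ3pos and 459325 and 334624 CPM in IQ3neg. Enteroendocrine markers summed to 305 and 248 CPM in IQ3pos and to 22918 and 13732 CPM in IQ3neg, with 10 of 11 lower in both IQ3pos libraries. Gast was at 0 in both 3-mouse pools. Limma called 2 of the chief cell markers and 6 of the enteroendocrine markers lower, and edgeR 2 and 7. These lists moved with Sfrp5, Rspo4, Sostdc1 and Wif1, and their part in those differences was not tested.

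Markers of pit cells, parietal cells and cell division moved with Fzd7. All 6 pit markers, 7 of 9 parietal markers and 11 of 12 cell division genes were higher in both IQ3pos libraries. Their sums were 8856 and 11496 CPM in IQ3pos against 1910.5 and 2355 CPM in IQ3neg for pit cells, and 5825 and 6974 CPM against 1199 and 1916 CPM for parietal cells. For cell division they were 995 and 2966 CPM in IQ3pos against 137 and 313 CPM in IQ3neg. Slc26a7, of the parietal list, and Bub1 and Plk1, of the division list, were at 0 in IQ3neg_1909B. Limma called 0 genes of these 3 lists, whereas edgeR called 3 of the 6 pit markers and 1 of the 9 parietal markers higher, and 0 of the division genes. Their part in the Fzd7 difference was not tested.

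Wnt ligands and R-spondins are often made by stroma, and stromal markers were low but not equal. Fibroblast markers summed to 57.5 and 64.3 CPM in IQ3pos and to 45.3 and 7.74 CPM in IQ3neg, of which Fbln1 alone made 53.9 and 63.6 CPM in IQ3pos. Dcn, a fibroblast proteoglycan, stood at 0.0466 and 0 CPM in IQ3pos and at 19.3 and 1.32 CPM in IQ3neg, and Col3a1 at 0.00776 and 0.0657 CPM in IQ3pos and at 10.4 and 0.0981 CPM in IQ3neg. IQ3neg_1909B, the library with most Dcn and Col3a1, was also the one that held Rspo3 and Dkk3. Smooth muscle markers summed to 0.0699 and 1.10 CPM in IQ3pos and to 0.351 and 0.875 CPM in IQ3neg, with Tagln at 0 in both IQ3pos libraries, Cnn1 in IQ3pos_1909A and Actg2 in IQ3neg_1910B. Lum was at 0 in IQ3pos_1909A and in both IQ3neg libraries, and Pdgfra, Pdgfrb and Thy1 were at 0 in IQ3neg_1910B.

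Lymphocyte markers summed to 16.3 and 0.138 CPM in IQ3pos and to 88.3 and 22.5 CPM in IQ3neg, and myeloid markers to 203 and 65.3 CPM in IQ3pos and to 522 and 94.9 CPM in IQ3neg. Endothelial markers summed to 1.24 and 0.178 CPM in IQ3pos and to 5.94 and 14.6 CPM in IQ3neg. Of the lymphocyte list, Cd3g was at 0 in both IQ3pos libraries and in IQ3neg_1910B, Nkg7 in IQ3pos_1910A and IQ3neg_1910B, Cd2 and Ms4a1 in IQ3neg_1909B, and Cd3e and Cd79a in IQ3neg_1910B. Of the myeloid list, S100a8 was at 0 in all 4 libraries, S100a9 in all but IQ3pos_1909A, and Itgam in IQ3pos_1909A. The endothelial genes Emcn and Cldn5 were at 0 in IQ3pos_1909A and IQ3pos_1910A in turn, Pecam1 in IQ3neg_1909B, and Cdh5 and Cldn5 in IQ3neg_1910B. The part of these cells in the values of Rspo3, Dkk3, Lef1 or Wnt5a was not tested.

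Epithelial markers summed to 7214 and 9951 CPM in IQ3pos and to 4437 and 6927 CPM in IQ3neg, with Cldn7 at 0 in IQ3pos_1909A. Mucous neck markers summed to 3655 and 7556 CPM in IQ3pos and to 1605 and 2672 CPM in IQ3neg, with none at 0. Tuft cell markers summed to 949 and 590 CPM in IQ3pos and to 919 and 2067 CPM in IQ3neg, with Il17rb at 0 in both 3-mouse pools. The epithelial and mucous neck sums were each highest in IQ3pos_1910A, and the tuft sum in IQ3neg_1910B.

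Nerve and glia markers were near 0 in IQ3pos, at a sum of 0.171 and 0.0876 CPM, against 12.9 and 13.3 CPM in IQ3neg, most of it Elavl4. S100b was at 0 in both 3-mouse pools, Elavl4 in IQ3pos_1909A, Tubb3 in IQ3pos_1910A and Sox10 in IQ3neg_1910B. Red blood cell markers summed to 2.36 and 0.369 CPM in IQ3pos and to 18.7 and 3.86 CPM in IQ3neg, with Alas2 at 0 in IQ3pos_1909A and Hbb-bs and Hbb-bt in IQ3pos_1910A. Pancreatic acinar markers summed to 48.0 and 160 CPM in IQ3pos and to 136 and 139 CPM in IQ3neg, overlapping, with Amy2a5 at 0 in both IQ3pos libraries and in IQ3neg_1910B, Ptf1a in IQ3pos_1909A and Cpa1 in IQ3neg_1910B.

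**Figure D5:**
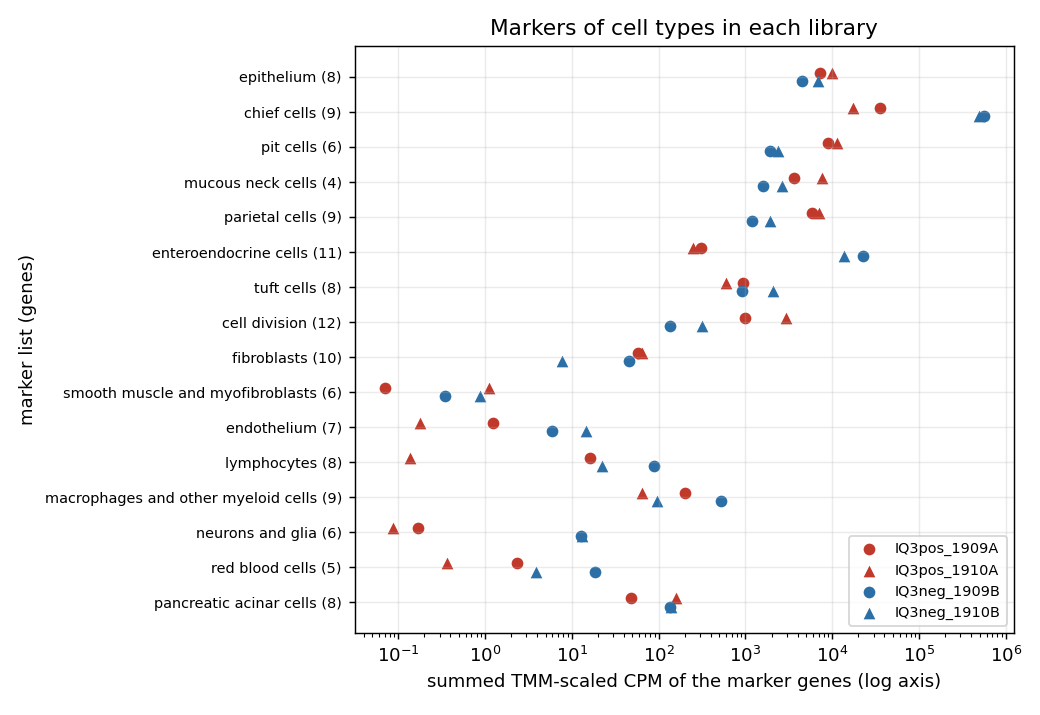
Summed TMM-scaled CPM of each marker list (number of genes in brackets) in each library on a log axis, IQ3pos in red and IQ3neg in blue (circles, 3-mouse pools; triangles, 4-mouse pools). Chief and enteroendocrine sums are higher in IQ3neg. Pit, parietal, cell division, epithelial and mucous neck sums are higher in IQ3pos. Lists of stromal, vascular and nerve cells lie far below those of epithelium.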

How the data were processed

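Gene expression was measured by SMART-Seq2 in 2 IQ3pos and 2 IQ3neg libraries. The deposited table holds CPM per gene symbol; STAR 2.7.1a, featureCounts, Subread 2.0.0, edgeR, GRCm38 and mm10 are named per the submitters' processing notes, without roles or order. The sources used here do not give the annotation, strand setting or duplicate handling. The CPM steps of the authors' table gave whole reads for 100% of values (tolerance 0.05; 99.99% in IQ3neg_1910B), a single read being worth 0.00239 to 0.0110 CPM. Between 68.2% and 73.0% of recovered values below 1000 reads were even, so a fragment may often count as 2 reads and the intervals may be too narrow.

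CPM were divided by TMM factors (1.42 and 1.15 in IQ3pos, 0.742 and 0.828 in IQ3neg) computed from the recovered reads with edgeR 4.0.16. Limma-trend (limma 3.58.1, R 4.3.3) was fitted to log2(scaled CPM + 1) for genes averaging 1 scaled CPM or more (13093), without a block, two-sided, with Benjamini-Hochberg adjustment at 0.05 over all of them. Log2 differences are on the log2(value + 1) scale, which understates changes of low genes. The fit had 2 residual and 4.00 prior degrees of freedom. Alternatives were other scalings, pseudocounts and filters, omission of single libraries, the library number as a block, edgeR's quasi-likelihood test and DESeq2 1.42.0 on the recovered reads. The scripts were tested on simulated data. Intervals of read ratios are 95% exact binomial ones.

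Each member was reported by level class: those of at least 1 CPM in full, those from 0.1 to 1 CPM by value, lower ones by class. From each pathway list the 2 genes of largest difference without overlap between the fractions were named, and from each marker list the sum and the genes at 0; 1 gene at 0 is not reported here. Members and lists were chosen with earlier results of these data known. Exon lengths, overlaps and gene positions are from GENCODE vM21 on GRCm38, 1-based. Rows with a repeated symbol (109) or a date in place of a symbol (27) were not used as members.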

Additional observations from a re-analysis of the deposited data

How the results depend on the processing

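Numbers of genes called depended on the tool and scaling, and the cause was not tested. Beside 0 higher and 18 lower genes in limma, there were 1 and 12 without the 20 most abundant genes, 7 and 34 with median-of-ratios scaling, 9 and 48 with a pseudocount of 5, 29 and 57 with a filter of 5 CPM, 9 and 36 in edgeR, and 1040 and 2031 in DESeq2. Lower calls numbered 0 on deposited CPM, without a filter, with a pseudocount of 0.1, alone or with a filter of 0.1 CPM, and 0 to 0 with a library left out. With the library number as a replicate block there were 293 and 201; the numbers are shared by libraries of equal mouse number, are not stated to mark the same mice, and deviations of same-numbered libraries correlated at r = 0.154 across 13093 genes. Called members stayed at 0 under every setting, the block included, but DESeq2 (1 higher, 3 lower). There, with each library left out, an alternative chosen after seeing the data that leaves 1 library in an arm, assumed to vary like the other fraction, 1 to 4 were higher and 3 to 4 lower. Tested members without overlap numbered 12 on deposited CPM, 25 without a filter and 12 to 15 with a library left out, beside 7. The 25 include members with few reads, and a lone library in an arm separates from the other fraction more easily. The matching shares of all genes were not computed, nor those for DESeq2 with a library left out. These counts are therefore not a result about the members.

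Of the 21 tested members, 10 kept their direction under each of the 15 alternatives that could test them. Some of these alternatives could not change a direction. Dropping the filter, the filter of 5 CPM and the block leave each difference as it was. The filter of 0.1 CPM repeats the differences at a pseudocount of 0.1. With the filter of 5 CPM 9 members were not tested, nor were Rspo4 and Sfrp1 without IQ3neg_1910B or Wnt4 without IQ3pos_1909A. Reversals on deposited CPM were Lrp6 (0.38), Znrf3 (0.42), Rnf43 (0.50), Fzd6 (0.11) and Axin1 (0.0471). Without the 20 most abundant genes Ascl2 (−0.0915) and Porcn (−0.0456) turned, as did Porcn (−0.0174) at a pseudocount of 0.1 with or without its lower filter, Rnf43 at a pseudocount of 5 (0.0740), in edgeR (0.44) and in DESeq2 (0.51), and Ascl2 in edgeR (−0.16). With a library left out the ranges were −0.81 to 0.20 for Lrp6, −0.21 to 3.13 for Fzd4, −1.20 to 1.40 for Ascl2, −1.28 to 0.46 for Sfrp1, −1.47 to 1.25 for Rnf43, −0.58 to 1.34 for Fzd3, −1.45 to 1.15 for Axin1, −0.32 to 1.02 for Apc and −1.45 to 1.85 for Porcn. The limits are 2 pooled libraries per fraction and few reads for the lowest genes.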
